A study of Mus musculus with 14 samples.

Results

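Transcripts of 10 receptors of the TNF receptor superfamily were followed in mouse CD4 T cells: Tnfrsf1a, Tnfrsf1b, Tnfrsf4, Tnfrsf8, Tnfrsf9, Tnfrsf18, Tnfrsf25, Tnfrsf10b, Cd27 and Fas. They were chosen by name, with earlier results of these data known. All 10 were found among the 27179 genes of the count table by their Entrez identifiers. The samples are 14 libraries of bulk RNA. Naive CD4 cells of C57BL/6 mice were activated on antibodies against CD3 and CD28, held in culture for 3.5 days, and sorted by flow cytometry before RNA was taken. The Th1 group (5 libraries) was cultured under a condition named Th1, and the sources used here do not give its cytokines and antibodies. The TfhA group (4 libraries, replicates 1, 2, 4 and 5) was steered toward follicular helper T cells, which help B cells make antibodies, with an antibody against TGF-β. The Tfh5 group (5 libraries) was steered toward the same cell with 5 ng/ml of TGF-β. The sources used here do not give the age and sex of the mice, the gate of the sort, or whether each library had its own animal or culture, so p-values measure only the spread between these libraries.

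TNF receptors are type I membrane proteins with cysteine-rich repeats outside the cell, and most bind a ligand of the TNF superfamily as trimers. They fall into groups by what the tail inside the cell recruits. Tnfrsf1b (TNFR2), Tnfrsf4 (OX40), Tnfrsf8 (CD30), Tnfrsf9 (4-1BB, CD137), Tnfrsf18 (GITR) and Cd27 bind TRAF adaptors, and on T cells they act as costimulatory receptors that signal to NF-κB. Tnfrsf1a (TNFR1), Tnfrsf25 (DR3), Tnfrsf10b (the mouse TRAIL receptor) and Fas carry a death domain and can engage FADD or TRADD, leading to caspases or to NF-κB. On resting T cells Cd27 is already present, whereas OX40, 4-1BB and CD30 are known as receptors that appear after activation.

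Tnfrsf9, Tnfrsf4, Tnfrsf18, Tnfrsf8 and Tnfrsf10b were highest in Th1, lower in TfhA and lowest in Tfh5, with all 3 comparisons passing the test for each of the 5 genes. Cd27 had the reverse order, and Tnfrsf1b, Tnfrsf1a and Tnfrsf25 were highest in Tfh5. Fas was lower in Tfh5 than in both other groups. The largest difference was that of Tnfrsf9, which was 18.2-fold lower in Tfh5 than in Th1.

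In the comparison of Tfh5 with TfhA, 4 of the 10 receptors were higher and 6 lower in Tfh5, at an adjusted p under 0.05 (edgeR quasi-likelihood test, Benjamini-Hochberg over 13075 tested genes). Of all tested genes, 27.4% were higher and 30.1% lower in that comparison. The median log2 fold change of the 10 receptors was -0.78, against -0.01 for all tested genes, and the libraries of the 2 groups did not overlap for 10 of 10 receptors, as was so for 44.2% of all tested genes. In TfhA against Th1, 1 receptor was higher and 6 were lower, where 23.2% of all tested genes were higher and 21.6% lower. The median there was -0.54, against 0.03 for all tested genes, and 7 receptors did not overlap, against 38.1% of all tested genes. In Tfh5 against Th1, 4 were higher and 6 lower, where 31.5% of all tested genes were higher and 33.0% lower. That median was -1.02, against -0.01 for all tested genes, and 9 receptors did not overlap, against 50.2%. The 3 comparisons share libraries, so their counts are not independent of each other.

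**Figure D1:**
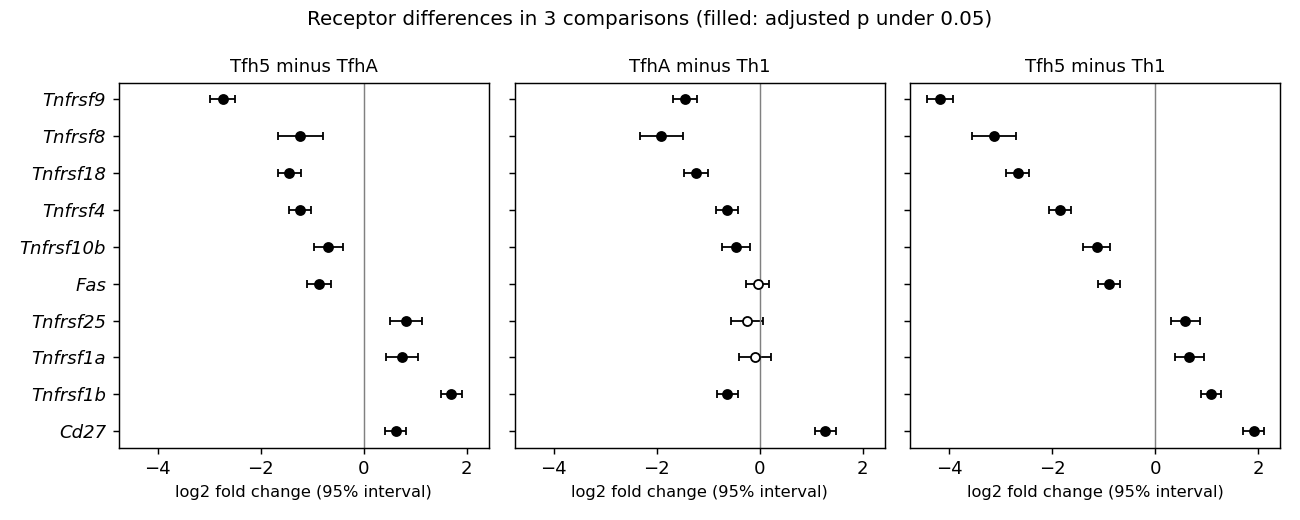
Log2 fold change of each receptor (points) with its 95% interval from the edgeR fit (bars) in the 3 comparisons, with filled points for an adjusted p under 0.05. Tnfrsf9 lies farthest to the left in Tfh5 against TfhA (-2.74) and in Tfh5 against Th1 (-4.19), and the 3 open points in TfhA against Th1 are Fas, Tnfrsf25 and Tnfrsf1a.

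The 10 genes lie on 4 chromosomes, and 6 of them lie on chromosome 4 (GRCm38, the assembly that mm10 names). Tnfrsf4 (chr4:156013595-156016613) and Tnfrsf18 (chr4:156026322-156028894) are neighbours with 9708 bases between them, and both were highest in Th1 and lowest in Tfh5. Tnfrsf1b (chr4:145212368-145246870) and Tnfrsf8 (chr4:145267132-145315164) are also neighbours, 20261 bases apart, but moved in opposite directions in Tfh5. Tnfrsf9 is at chr4:150920155-150946104 and Tnfrsf25 at chr4:152115528-152120119. Cd27 (chr6:125232620-125237136) and Tnfrsf1a (chr6:125349723-125362483) share chromosome 6, Tnfrsf10b is at chr14:69767472-69784411 and Fas at chr19:34290647-34327775.

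Promoter sequences are shown for some of the receptors: Tnfrsf9, Tnfrsf18 and Tnfrsf8, which were lowest in Tfh5, and Tnfrsf1b and Cd27, which were highest there. Tnfrsf4, Tnfrsf10b and Fas were also lowest in Tfh5, and Tnfrsf1a and Tnfrsf25 also highest, and their sequences are not shown. Each runs from 250 bases before to 50 bases after a transcription start of RefSeq on GRCm38.p6, 5′ to 3′ on the strand of the gene. Capitals mark matches, on either strand, to the NF-κB form GGGNNNNNCC, the AP-1 form TGANTCA or the STAT form TTCNNNGAA. The windows are chr4:150927749-150928048 (plus strand) for the second listed start of Tnfrsf9, chr4:156026072-156026371 (plus strand) for Tnfrsf18, chr4:145315115-145315414 (minus strand) for Tnfrsf8, chr4:145246821-145247120 (minus strand) for Tnfrsf1b and chr6:125236978-125237277 (minus strand) for Cd27.
Tnfrsf9: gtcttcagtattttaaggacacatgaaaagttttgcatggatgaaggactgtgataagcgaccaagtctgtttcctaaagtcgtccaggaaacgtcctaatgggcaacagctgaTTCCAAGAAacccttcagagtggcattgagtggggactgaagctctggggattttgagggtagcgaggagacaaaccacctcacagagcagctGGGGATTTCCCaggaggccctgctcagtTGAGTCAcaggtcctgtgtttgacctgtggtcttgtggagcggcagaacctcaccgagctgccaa
Tnfrsf18: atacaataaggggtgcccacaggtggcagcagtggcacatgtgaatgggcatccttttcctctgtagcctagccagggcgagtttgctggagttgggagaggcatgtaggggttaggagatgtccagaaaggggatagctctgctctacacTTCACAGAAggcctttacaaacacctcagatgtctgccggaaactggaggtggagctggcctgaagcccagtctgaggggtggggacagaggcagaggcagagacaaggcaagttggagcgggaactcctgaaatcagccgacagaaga
Tnfrsf8: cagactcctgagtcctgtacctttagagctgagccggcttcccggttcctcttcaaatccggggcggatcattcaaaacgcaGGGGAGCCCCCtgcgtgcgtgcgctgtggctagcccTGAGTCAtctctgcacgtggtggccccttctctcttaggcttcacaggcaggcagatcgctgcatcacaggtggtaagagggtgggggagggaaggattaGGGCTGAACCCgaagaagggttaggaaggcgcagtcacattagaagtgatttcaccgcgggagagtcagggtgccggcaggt
Tnfrsf1b: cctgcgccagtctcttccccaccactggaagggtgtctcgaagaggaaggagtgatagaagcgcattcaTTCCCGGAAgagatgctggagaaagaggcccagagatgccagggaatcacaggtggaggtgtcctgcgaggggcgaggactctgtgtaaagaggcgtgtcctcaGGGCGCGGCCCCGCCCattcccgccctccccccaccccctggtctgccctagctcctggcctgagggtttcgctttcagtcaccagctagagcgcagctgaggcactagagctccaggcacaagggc
Cd27: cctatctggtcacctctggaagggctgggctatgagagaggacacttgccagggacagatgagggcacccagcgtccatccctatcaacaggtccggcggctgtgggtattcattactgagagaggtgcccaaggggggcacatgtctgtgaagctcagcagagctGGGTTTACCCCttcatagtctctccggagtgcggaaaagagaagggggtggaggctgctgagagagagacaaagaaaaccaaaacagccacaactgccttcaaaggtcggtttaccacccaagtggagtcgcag

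The Tnfrsf9 window holds all 3 forms: the STAT form TTCCAAGAA from position -136, 2 overlapping matches to the NF-κB form (GGGGATTTCC from position -43 and GGGATTTCCC from position -42) and the AP-1 form TGAGTCA from position -15, counted from the transcription start as position 1. The window at the first listed start of Tnfrsf9 holds none of the 3 forms, and the second was shown because it holds matches. Tnfrsf8 has the AP-1 form TGAGTCA from position -132 and the NF-κB form at positions around -168 and -32. Tnfrsf1b has the STAT form TTCCCGGAA from position -181 and overlapping NF-κB forms from position -77, Tnfrsf18 only the STAT form TTCACAGAA from position -99, and Cd27 only overlapping NF-κB forms from position -84. Of the 9 receptors with a RefSeq promoter entry, 7 had the NF-κB form, 3 the AP-1 form (Fas, Tnfrsf8 and Tnfrsf9) and 6 the STAT form (Fas, Tnfrsf18, Tnfrsf1a, Tnfrsf1b, Tnfrsf25 and Tnfrsf9) in a window. Of all 32851 windows of that length, 50.8% held the NF-κB form, 7.8% the AP-1 form and 8.3% the STAT form. Receptors with 2 listed starts count as having a form if either window holds it, and receptors that rose and receptors that fell in Tfh5 both hold each of the NF-κB and STAT forms. A match describes letters only, and no binding was measured here. Tnfrsf4 has an entry whose window holds none of the 3 forms. It is not shown. Its listed start (156013695 on chromosome 4) lies apart from the annotated start of the gene. The same is true of the shown starts of Cd27 (125237027 on chromosome 6) and Tnfrsf9 (150927999 on chromosome 4). This alone therefore does not set Tnfrsf4 apart. Tnfrsf10b is the receptor without an entry.

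Totals ran from 8805921 to 16108059 counts per library and were highest in Th1, where each library held at least 13390058 counts. Levels are therefore given as CPM, counts relative to the library total, scaled by TMM, a factor per library that lines up most genes. Counts of the 10 receptors ranged from 40 to 14577 per gene and library. Within groups, the correlation of log2 CPM between libraries was 0.970 to 0.991. No 2 libraries of a group matched within counting noise (chi-square per degree of freedom 4.15 to 30.64). In Th1, pairs with replicate 1 gave 22.95 to 30.64 and the other pairs 4.15 to 9.81. Pairs gave 11.66 to 20.53 in TfhA and 5.9 to 26.14 in Tfh5. The T cell genes Cd3e and Cd4 were high in every group (Cd3e at 498 ± 26.1 in Th1, 653 ± 131 in TfhA and 972 ± 94.4 CPM in Tfh5). The labels of culture were also visible: Tbx21, the Th1 factor T-bet, stood at 244 ± 35.3 CPM in Th1 (SD, n = 5), and Maf at 1419 ± 153 and Cxcr5 at 79.3 ± 6.65 CPM in Tfh5 (SD, n = 5). In TfhA, Cxcr5, the receptor that takes T cells to follicles, was at 1.95 ± 0.92 CPM (SD, n = 4), close to the 1.77 ± 0.67 of Th1 (SD, n = 5), so this gene that marks follicular helper cells was near absent from the group named for them. Bcl6, the factor those cells need, was at 16.3 ± 5.07 CPM in TfhA and 105 ± 16.6 in Tfh5. Tbx21 was at 61.6 ± 7.06 CPM in TfhA (SD, n = 4) and 1.90 ± 0.42 in Tfh5 (SD, n = 5). Il17a, a cytokine gene that these labels do not name, was at 317 ± 48.0 CPM in Tfh5. It was at 0.43 ± 0.21 CPM in TfhA and 0.24 ± 0.41 in Th1.

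Genes of other cells were looked at beside the receptors. The 6 γδ T cell markers summed to 5.37 to 9.09 CPM over the Th1 libraries, 42.7 to 107 over TfhA and 7.77 to 17.1 over Tfh5, mostly Trdc, with Trdv4 at 0 in all groups. The 10 B cell markers summed to 27.3 to 35.5, 22.3 to 32.4 and 0.97 to 3.05 CPM in the same order. Ebf1 made up most of that sum in Th1 (29.3 ± 3.64 CPM, SD, n = 5) and in TfhA (17.2 ± 4.45, SD, n = 4) but not in Tfh5 (0.53 ± 0.44, SD, n = 5), and Pax5 was at 0 in Th1. The 12 myeloid and dendritic markers summed to 5.41 to 7.77, 10.9 to 18.6 and 4.47 to 9.18 CPM in the same order, with Adgre1 and Siglech at 0 in all groups and H2-Aa at 6.99 ± 1.16 in TfhA (SD, n = 4) and 0 in Tfh5. The 8 CD8 and NK markers summed to 62.9 to 109, 70.6 to 102 and 68.2 to 113 CPM, with Ncr1 at 0 throughout. These similar sums hold genes that moved in opposite directions. In the same order of groups, Klrk1 was at 40.9 ± 6.28, 23.1 ± 6.53 and 0.92 ± 0.70 CPM. Klrd1 was at 16.6 ± 3.94, 40.3 ± 11.2 and 73.4 ± 17.9 CPM, and Prf1 at 6.08 ± 2.79, 8.52 ± 4.03 and 0.92 ± 0.68. The 8 markers of granulocytes, platelets and red cells summed to 120 to 178, 22.5 to 30.8 and 52.8 to 120 CPM, nearly all of it Ly6g. OX40, GITR and 4-1BB are also known from regulatory T cells. Foxp3, which defines those cells, was at 2.43 ± 1.48 CPM in Th1 (SD, n = 5), 2.24 ± 1.21 in TfhA (SD, n = 4) and 4.19 ± 1.51 in Tfh5 (SD, n = 5), while the 10 regulatory T cell markers summed to 7214 to 8766, 2942 to 3350 and 2639 to 3316 CPM, most of it Il2ra. The part of any of these cells in the receptor levels was not tested. In bulk RNA, fewer cells of a type and less RNA per cell cannot be told apart.

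**Figure D2:**
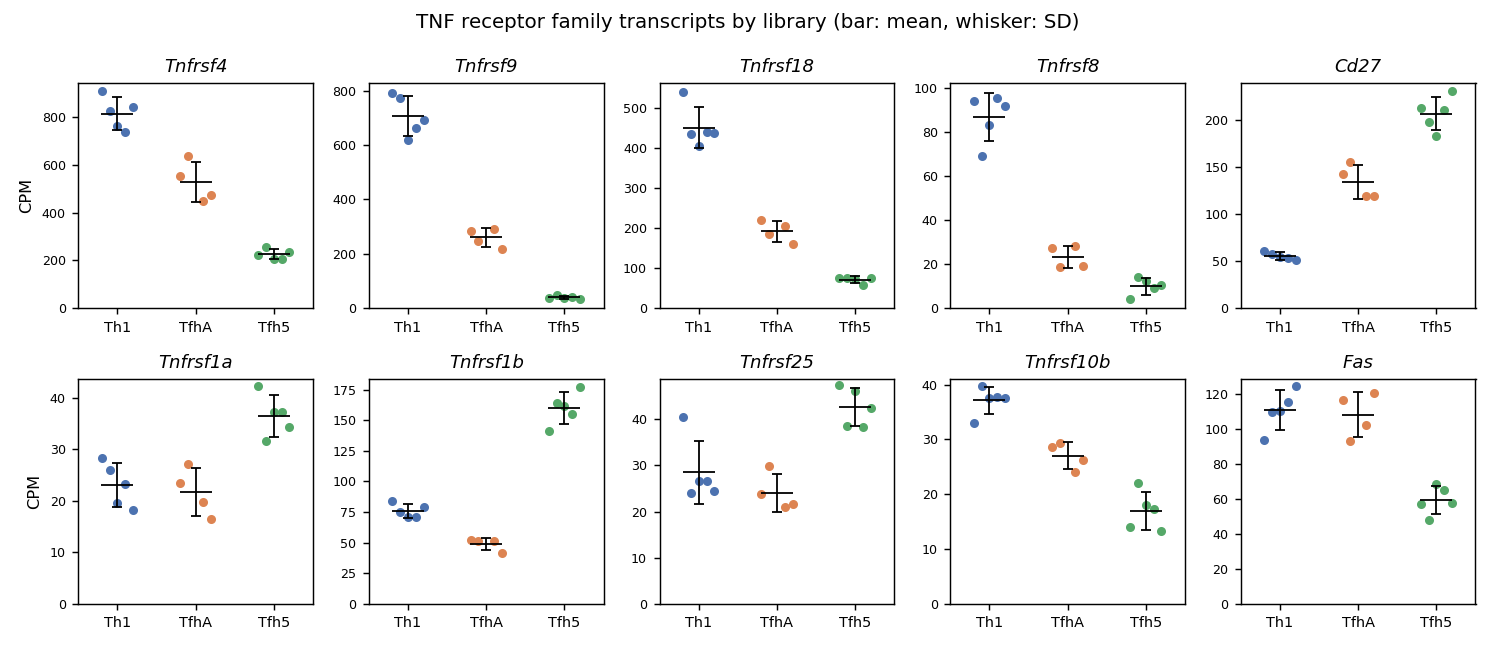
CPM (TMM-scaled) of the 10 receptors in each of the 14 libraries, with the mean as a bar and the SD as whiskers for each group. The upper row starts with the receptors that step down from Th1 over TfhA to Tfh5, such as Tnfrsf9 (means 708, 260 and 39.0), and ends with Cd27, which steps up (means 55.2, 134 and 207).

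Tnfrsf9 encodes 4-1BB, a costimulatory receptor that T cells gain after activation and that sustains CD8 and CD4 responses. Its level was 792, 775, 618, 663 and 695 CPM in the Th1 libraries, 283, 246, 291 and 218 CPM in TfhA, and 37.8, 48.7, 37.0, 38.3 and 33.0 CPM in Tfh5. The 3 groups were fully apart, and the highest Tfh5 library lay far below the lowest TfhA library. Tnfrsf9 was 6.68-fold lower in Tfh5 than in TfhA (log2 fold change -2.74 ± 0.12, SE, edgeR adjusted p = 5.63e-16), 2.73-fold lower in TfhA than in Th1 (-1.45 ± 0.11, adjusted p = 1.70e-10) and 18.2-fold lower in Tfh5 than in Th1 (-4.19 ± 0.12, adjusted p = 9.31e-20).

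Tnfrsf4 encodes OX40, which supports survival and memory of CD4 T cells. Its levels were 909, 827, 761, 736 and 843 CPM in Th1, 555, 635, 447 and 476 CPM in TfhA, and 222, 255, 206, 205 and 236 CPM in Tfh5. No library of one group reached the range of another. The step from TfhA to Tfh5 was -1.23 ± 0.10 on the log2 scale (SE, edgeR adjusted p = 2.49e-10), and that from Th1 to TfhA was -0.63 ± 0.10 (edgeR adjusted p = 2.91e-05). From Th1 to Tfh5 Tnfrsf4 fell 3.62-fold. Its annotated start overlaps the end of Sdf4, a calcium-binding protein of the Golgi, by 16 bases. Sdf4 itself was at 1617 ± 105 CPM in Th1 (SD, n = 5), 549 ± 83.7 in TfhA (SD, n = 4) and 361 ± 43.7 in Tfh5 (SD, n = 5), so it moved in the same direction in these groups.

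Tnfrsf18 encodes GITR, the neighbour of OX40 and like it a costimulatory receptor that is known from activated and regulatory T cells. The Th1 libraries held 538, 434, 404, 439 and 436 CPM, the TfhA libraries 219, 183, 205 and 158 CPM, and the Tfh5 libraries 74.8, 75.5, 71.6, 56.1 and 73.6 CPM. The groups did not overlap, with Th1 replicate 1 well above the other Th1 libraries. Tnfrsf18 was 2.72-fold lower in Tfh5 than in TfhA (log2 fold change -1.44 ± 0.11, SE, edgeR adjusted p = 3.88e-11), 2.35-fold lower in TfhA than in Th1 (-1.23 ± 0.11, adjusted p = 2.10e-09) and 6.40-fold lower in Tfh5 than in Th1. The gene lies wholly within the long noncoding RNA gene Gm16008, which held 2.497 CPM in its highest library.

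Tnfrsf8 encodes CD30, named from lymphoma cells and found on some activated T cells. It stood at 93.9, 69.1, 82.9, 95.3 and 91.8 CPM in Th1, at 27.0, 18.3, 28.0 and 19.0 CPM in TfhA, and at 3.81, 13.97, 12.2, 9.11 and 10.3 CPM in Tfh5. The 3 groups did not overlap, and Tfh5 replicate 1 was the lowest library of all. Here the larger step was between Th1 and TfhA, with a log2 fold change of -1.91 ± 0.20 (SE, edgeR adjusted p = 4.25e-08), against -1.23 ± 0.21 between TfhA and Tfh5 (adjusted p = 2.65e-05), but a test of one step against the other was not made. In all, Tnfrsf8 was 8.77-fold lower in Tfh5 than in Th1.

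Cd27 encodes the receptor for CD70, which naive T cells already carry and which supports priming and survival. Its levels were 61.0, 57.1, 53.8, 52.8 and 51.4 CPM in Th1, 142, 155, 119 and 119 CPM in TfhA, and 212, 197, 183, 210.5 and 230.5 CPM in Tfh5. The order was the reverse of that of OX40, 4-1BB, GITR and CD30, again without overlap between groups. Cd27 was 2.43-fold higher in TfhA than in Th1 (log2 fold change 1.28 ± 0.10, SE, edgeR adjusted p = 1.35e-10), and 1.54-fold higher in Tfh5 than in TfhA (0.63 ± 0.10, adjusted p = 6.62e-06). Among the 10 receptors it was the only one that was higher in TfhA than in Th1 and passed the test. The noncoding gene E130112N10Rik spans Cd27, and it held only 0.76 to 3.06 CPM. The next coding gene, Tapbpl, a relative of tapasin, moved the other way: Th1 held 51.6 ± 10.6 CPM (SD, n = 5), TfhA 29.6 ± 4.76 (SD, n = 4) and Tfh5 13.3 ± 0.62 (SD, n = 5). On the other side, 41133 bases away, the tubulin gene Tuba3a was low and moved with Cd27 (0.26 ± 0.12, 0.85 ± 0.45 and 2.42 ± 1.005 CPM). The sources used here do not give the strand setting of the counting, so reads of overlapping genes may be shared.

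The pair of TNF receptors, which bind both TNF and lymphotoxin-α, rose in Tfh5. Tnfrsf1b encodes TNFR2, the receptor without a death domain that prevails on T cells. It was at 84.2, 74.7, 70.5, 70.6 and 78.8 CPM in Th1, at 51.8, 51.5, 51.4 and 41.5 CPM in TfhA, and at 141, 164, 162, 155 and 177 CPM in Tfh5. Every Tfh5 library lay above every Th1 library, and every TfhA library lay below them. Tnfrsf1b was 3.26-fold higher in Tfh5 than in TfhA (log2 fold change 1.70 ± 0.10, SE, edgeR adjusted p = 3.12e-13) and 2.11-fold higher than in Th1 (1.08 ± 0.09, adjusted p = 1.43e-10), and TfhA was 1.54-fold below Th1 (-0.63 ± 0.10, adjusted p = 1.28e-05).

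Tnfrsf1a encodes TNFR1, the widely expressed receptor with a death domain. It was at 28.2, 25.9, 19.7, 23.2 and 18.2 CPM in Th1, 23.4, 27.2, 19.8 and 16.5 CPM in TfhA, and 42.4, 31.5, 37.3, 37.2 and 34.2 CPM in Tfh5. The Th1 and TfhA libraries lay among each other, and all Tfh5 libraries lay above both. The difference was 0.74 ± 0.15 on the log2 scale between Tfh5 and TfhA (SE, edgeR adjusted p = 0.000165) and 0.66 ± 0.14 between Tfh5 and Th1 (adjusted p = 0.000204). Between TfhA and Th1 it was -0.08, with a 95% interval of -0.39 to 0.23 (edgeR adjusted p = 0.687).

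The ratio of Tnfrsf1b to Tnfrsf1a within a library, which does not depend on its total, was also compared. Its log2 value was 1.73 ± 0.24 in Th1 (SD, n = 5), 1.19 ± 0.21 in TfhA (SD, n = 4) and 2.13 ± 0.26 in Tfh5 (SD, n = 5). These ratios are of CPM and compare libraries, not the molar amounts of the 2 transcripts. Tfh5 was above TfhA by 0.94 (two-sided exact permutation test, p = 0.00794, adjusted over 3 comparisons 0.0119), and TfhA differed from Th1 by -0.54 (exact p = 0.00794, adjusted 0.0119). Tfh5 was above Th1 by 0.40 (exact p = 0.0476, adjusted 0.0476), and this difference did not hold when any one of Th1 replicates 1, 2 or 4 or Tfh5 replicates 2, 3, 4 or 5 was left out, with adjusted p-values of 0.0635 to 0.0952 from the exact test.

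The other 3 death-domain receptors did not move together. Tnfrsf25 encodes DR3, the receptor of TL1A, which costimulates T cells. It stood at 40.5, 24.1, 26.7, 26.6 and 24.5 CPM in Th1, at 23.9, 29.9, 21.0 and 21.5 CPM in TfhA and at 47.4, 38.6, 46.0, 38.4 and 42.4 CPM in Tfh5. Tfh5 lay above TfhA in every library, and Th1 replicate 1 was the library that overlapped with Tfh5. Tnfrsf25 was 1.76-fold higher in Tfh5 than in TfhA (log2 fold change 0.82 ± 0.15, SE, edgeR adjusted p = 4.50e-05) and 1.49-fold higher than in Th1 (0.58 ± 0.14, adjusted p = 0.000684), while TfhA and Th1 differed by -0.24, with a 95% interval of -0.55 to 0.06 (adjusted p = 0.195). The nearer coding neighbour, Plekhg5, 123 bases away on the other side, passed in no comparison (7.87 ± 1.57 CPM in Th1, 5.86 ± 1.03 in TfhA and 6.68 ± 1.83 in Tfh5). Espn, an actin-bundling protein whose gene begins 211 bases beyond Tnfrsf25, went from 59.9 ± 10.1 CPM in Th1 (SD, n = 5) to 9.05 ± 1.03 in Tfh5 (SD, n = 5), against the direction of Tnfrsf25.

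Fas encodes the receptor of Fas ligand, which ends T cell responses by apoptosis. Its level was 93.5, 109, 110.2, 115 and 125 CPM in Th1, 117, 93.2, 102 and 120.4 CPM in TfhA, and 56.9, 47.8, 68.2, 65.3 and 57.5 CPM in Tfh5. Th1 and TfhA covered the same range, and every Tfh5 library lay below it. Fas was 1.83-fold lower in Tfh5 than in TfhA (log2 fold change -0.87 ± 0.11, SE, edgeR adjusted p = 2.96e-07) and 1.87-fold lower than in Th1 (adjusted p = 4.95e-08), and TfhA and Th1 differed by -0.03, with a 95% interval of -0.26 to 0.19 (adjusted p = 0.824).

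Tnfrsf10b encodes the mouse receptor through which TRAIL can start apoptosis. It was at 33.0, 39.7, 37.6, 37.7 and 37.6 CPM in Th1, at 28.6, 29.3, 24.0 and 26.3 CPM in TfhA and at 13.996, 22.03, 18.02, 17.4 and 13.2 CPM in Tfh5. The groups stood apart in the order of 4-1BB and OX40, over a smaller range. The log2 fold change was -0.68 ± 0.14 between Tfh5 and TfhA (SE, edgeR adjusted p = 0.000125), -0.45 ± 0.13 between TfhA and Th1 (adjusted p = 0.00691) and -1.14 ± 0.13 between Tfh5 and Th1 (adjusted p = 2.52e-08).

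To set the receptors against each other, CPM were divided by the length of each gene's exons in kilobases. On that scale Tnfrsf4 was the most abundant of the 10 in every group, at 791 ± 66.6 in Th1 (SD, n = 5), 513 ± 82.4 in TfhA (SD, n = 4) and 218 ± 20.3 CPM per kb in Tfh5 (SD, n = 5). The sum over the 10 receptors was 1613 ± 131 in Th1, 966 ± 102 in TfhA and 544.8 ± 25.9 CPM per kb in Tfh5. Tnfrsf18 took 22.1 ± 1.12% of that sum in Th1, 15.8 ± 2.07% in TfhA and 10.2 ± 0.95% in Tfh5. Tnfrsf9 took 17.6 ± 0.87%, 10.9 ± 1.63% and 2.88 ± 0.41%. Against these, the share of Cd27 was 2.20 ± 0.11% in Th1, 8.87 ± 0.33% in TfhA and 24.3 ± 1.83% in Tfh5, so that Cd27 was the second most abundant receptor per length in Tfh5. Tnfrsf1b took 1.23 ± 0.03%, 1.33 ± 0.12% and 7.69 ± 0.56%, and the share of Tnfrsf4 itself was 49.1 ± 1.17%, 52.9 ± 3.85% and 40.0 ± 2.04% (SDs over 5, 4 and 5 libraries). Shares of 1 sum depend on each other, and they are given as a description.

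**Figure D3:**
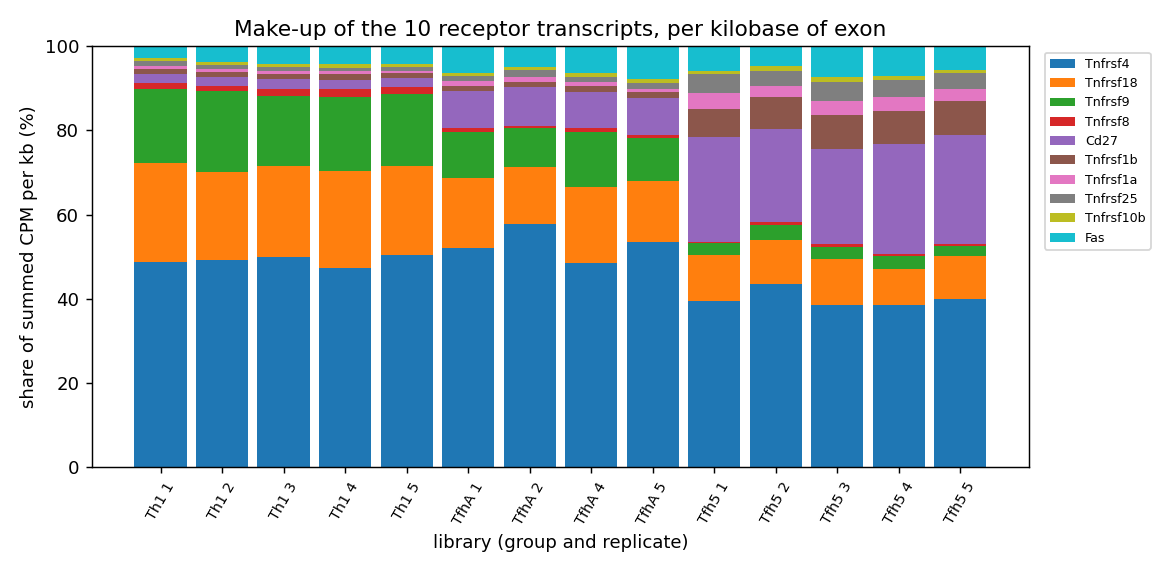
Share of each receptor in the summed CPM per kilobase of exon of the 10 receptors, for each of the 14 libraries (stacked bars, 100% in each). The Cd27 band widens from a mean of 2.20% in Th1 to 24.3% in Tfh5, while the Tnfrsf9 band narrows from 17.6% to 2.88%.

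The ligands of these receptors were lower in the culture with added TGF-β wherever they could be tested. Of the 10 ligands, 8 could be tested. All 8 were lower in Tfh5 than in TfhA (median log2 fold change -1.64) and in Tfh5 than in Th1 (median -3.17). Of all tested genes, 30.1% were lower in Tfh5 than in TfhA and 33.0% in Tfh5 than in Th1. In TfhA against Th1, 2 ligands were higher, 5 lower, and Tnf did not pass (log2 fold change -0.11, 95% interval -0.30 to 0.08, median of the 8 ligands -0.57). There, 23.2% of all tested genes were higher and 21.6% lower. The medians over all tested genes were -0.01, -0.01 and 0.03 in these 3 comparisons.

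Lta, which encodes lymphotoxin-α, a soluble ligand of both TNF receptors, was at 1231, 1103, 1111, 1276 and 1086 CPM in Th1, at 187, 137, 179.5 and 118 CPM in TfhA and at 59.8, 60.1, 65.4, 65.1 and 56.3 CPM in Tfh5. It fell 7.47-fold from Th1 to TfhA and a further 2.54-fold to Tfh5. Tnf was at 116 ± 3.98 in Th1 (SD, n = 5), 108 ± 10.1 in TfhA (SD, n = 4) and 67.7 ± 6.04 CPM in Tfh5 (SD, n = 5), and was 1.59-fold lower in Tfh5 than in TfhA (edgeR adjusted p = 8.14e-07). Both receptors of these ligands were thus higher in the group with the lowest level of either ligand.

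Tnfsf8, the ligand of CD30, differed widely between the follicular helper cultures. It was at 136, 135, 149, 143 and 144 CPM in Th1, at 310.2, 308, 211 and 328 CPM in TfhA, and at 9.05, 11.2, 13.5, 10.8 and 14.7 CPM in Tfh5. TfhA was above Th1 in every library, and Tfh5 was far below both. Tnfsf8 was 24.3-fold lower in Tfh5 than in TfhA (log2 fold change -4.60 ± 0.14, SE, edgeR adjusted p = 1.40e-18) and 2.05-fold higher in TfhA than in Th1 (adjusted p = 1.11e-07). Its receptor Tnfrsf8 was lower in TfhA than in Th1, so ligand and receptor differed in direction in that comparison and were both lower in Tfh5.

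Tnfsf9, the ligand of 4-1BB, also differed from its receptor between TfhA and Th1. Its mean was 23.4 ± 0.92 CPM in Th1 (SD, n = 5), 39.6 ± 3.78 in TfhA (SD, n = 4) and 18.7 ± 1.41 in Tfh5 (SD, n = 5). It was 1.70-fold higher in TfhA than in Th1 (edgeR adjusted p = 3.16e-06), where Tnfrsf9 was lower. Tnfsf4, the ligand of OX40, followed its receptor and stood at 39.8 ± 4.04, 22.4 ± 2.29 and 5.80 ± 1.88 CPM in the same order, with a 3.85-fold lower level in Tfh5 than in TfhA (edgeR adjusted p = 1.16e-09).

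The ligands of the death receptors were low in Tfh5. Fasl, the ligand of Fas, stood at 28.3 ± 4.36 CPM in Th1 (SD, n = 5), 5.75 ± 0.73 in TfhA (SD, n = 4) and 1.40 ± 0.82 in Tfh5 (SD, n = 5), and fell 4.90-fold from Th1 to TfhA, 2 groups between which Fas itself did not pass the test. Tnfsf10, which encodes TRAIL, was at 32.4 ± 2.38, 26.1 ± 2.92 and 10.6 ± 1.39 CPM. Its difference between TfhA and Th1 was -0.31 ± 0.12 on the log2 scale (SE, edgeR adjusted p = 0.0410) and was lost without any one of Th1 replicates 2, 3, 4 or 5 or TfhA replicates 1, 2 or 4 (adjusted p = 0.0616 to 0.133). Tnfsf15, the ligand of DR3, had 54 counts over the Th1 libraries, 18 over TfhA and 0 over Tfh5. With its Tfh5 level set to a floor of 3 counts over the 5 libraries, it was at least 7.55-fold lower in Tfh5 than in TfhA and at least 13.9-fold lower than in Th1, counting error only. Without TfhA replicate 1, which held most of the TfhA counts, 6 counts were left and the first limit was 3.61-fold. Tnfsf18, the ligand of GITR, was not tested and had 1 count over the Th1 libraries, 0 over TfhA and 9 over Tfh5. It reached 0.475 CPM in its highest library, Tfh5 replicate 4.

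Cd70, the ligand of Cd27, was at 6.05, 3.88, 6.35, 5.97 and 4.11 CPM in Th1 and at 0.98, 1.45, 0.54 and 0.85 CPM in TfhA. Over the 5 Tfh5 libraries 1 count was found, in replicate 3, and without that library there was none. The pooled level in TfhA was 54.1 times that in Tfh5, with a 95% counting interval of 9.20 to 2186, and the level in Th1 was 290 times that in Tfh5 (51.8 to 11490). The receptor and its ligand therefore had opposite orders over the 3 groups: Cd27 was highest where Cd70 was hardly found.

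**Figure D4:**
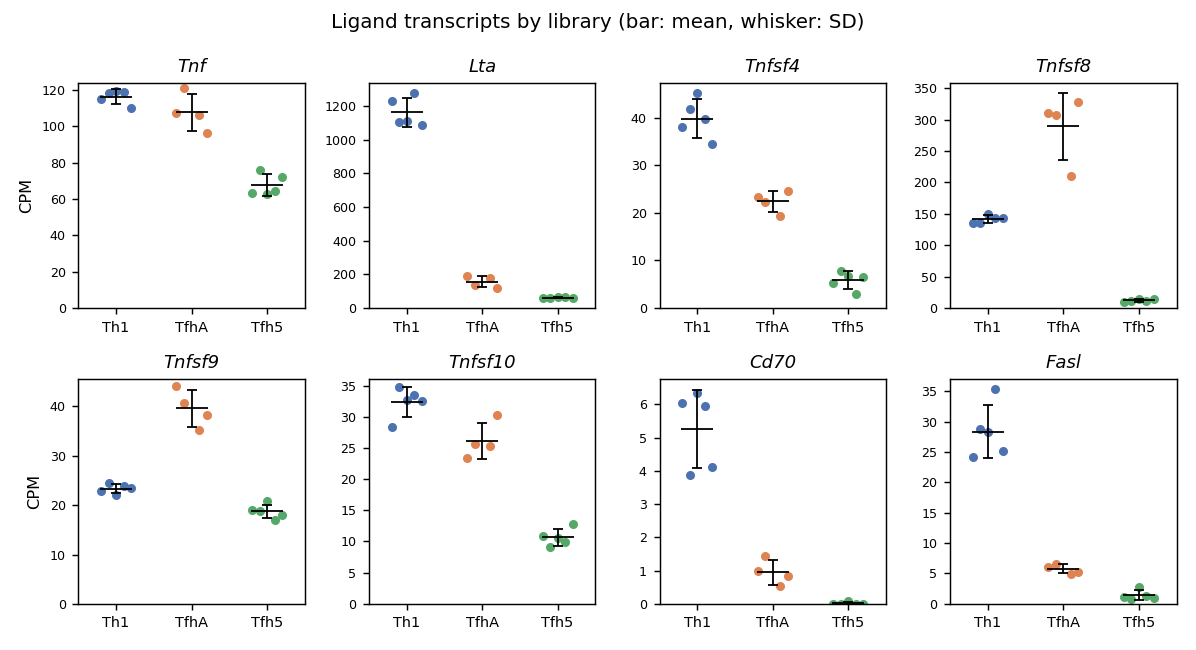
CPM (TMM-scaled) of the 8 tested ligands in each of the 14 libraries, with the mean as a bar and the SD as whiskers for each group. All 8 are lowest in Tfh5, and Tnfsf8 and Tnfsf9 peak in TfhA (means 289 and 39.6 CPM).

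The other receptors of the family were counted from a list of 18, of which 12 could be tested. Of these, 6 were higher and 3 lower in Tfh5 than in TfhA (median log2 fold change 0.48). In TfhA against Th1, 5 were higher and 3 lower (median 0.09). In Tfh5 against Th1, 7 were higher and 4 lower (median 0.87). Of all tested genes, 27.4% were higher and 30.1% lower in Tfh5 than in TfhA. The shares were 23.2% and 21.6% in TfhA against Th1, and 31.5% and 33.0% in Tfh5 against Th1. The medians over all tested genes were -0.01, 0.03 and -0.01 in that order. Cd40 was higher in Tfh5 than in TfhA (7.14 ± 2.28 against 1.23 ± 0.33 CPM, SD), as were Tnfrsf12a, the TWEAK receptor (5.58 ± 0.63 against 1.24 ± 0.26), and Tnfrsf14, the herpesvirus entry mediator HVEM (32.7 ± 5.34 against 11.9 ± 2.85). Tnfrsf11b, which encodes the decoy receptor osteoprotegerin, was a TfhA gene by level: 1.03 ± 0.36 CPM in Th1, 14.3 ± 1.73 in TfhA and 0.36 ± 0.18 in Tfh5, or 36.8-fold lower in Tfh5 than in TfhA (edgeR adjusted p = 5.13e-13). Tnfrsf26 rose at both steps, with 39.8 ± 3.84 CPM in Th1, 83.0 ± 7.71 in TfhA and 166.6 ± 20.9 in Tfh5. Tnfrsf22, Tnfrsf23 and Tnfrsf26 are close copies of each other, and the sources used here do not say how reads with several possible places were counted, so their split is uncertain.

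Lists of genes downstream of the receptors were counted in the same way, to be read against the shares of all tested genes given above. Of 12 adaptors and ubiquitin ligases, 4 were higher and 3 lower in Tfh5 than in TfhA (median 0.10), near the 27.4% and 30.1% of all tested genes, 4 higher and 3 lower in TfhA than in Th1 (median -0.11), and 3 higher and 5 lower in Tfh5 than in Th1 (median -0.18). Traf1, an adaptor that binds 4-1BB and CD30 and is itself a known NF-κB target, stepped down with those receptors: its level was 217 ± 21.1 CPM in Th1 (SD, n = 5), 145 ± 19.6 in TfhA (SD, n = 4) and 93.0 ± 8.59 in Tfh5 (SD, n = 5), with edgeR adjusted p-values of 6.42e-05 and 8.16e-06 for the 2 steps. Traf5, an adaptor of CD27 and OX40, stepped up with Cd27, from 3.43 ± 0.89 to 5.02 ± 1.14 and 11.1 ± 1.67 CPM (edgeR adjusted p = 0.0476 and 7.69e-05), with overlapping libraries in Th1 and TfhA. Ripk1, the kinase that TNFR1 recruits, was lower in Tfh5 than in TfhA (95.3 ± 3.63 against 149 ± 18.8 CPM), and Birc2, the ubiquitin ligase cIAP1, was lower as well (49.0 ± 7.59 against 70.1 ± 5.29).

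Of 12 genes of death signalling, 3 were higher and 7 lower in Tfh5 than in TfhA (median -0.55), 3 higher and 3 lower in TfhA than in Th1 (median 0.10), and 5 higher and 6 lower in Tfh5 than in Th1 (median -0.39). Mlkl, the pore-forming effector of necroptosis, was at 37.1 ± 2.79 in Th1, 31.0 ± 5.04 in TfhA and 3.85 ± 1.52 CPM in Tfh5. Bid, which links death receptors to mitochondria, fell 2.05-fold from TfhA to Tfh5. Higher in Tfh5 were Cflar, which encodes c-FLIP, an inhibitor of death receptor signalling (94.6 ± 6.74 against 66.7 ± 1.32 CPM in TfhA), and Xiap, an inhibitor of apoptosis (166 ± 5.83 against 124 ± 16.8).

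Of 13 NF-κB kinases and subunits, 3 were higher and 2 lower in Tfh5 than in TfhA (median 0.04), 3 higher and 4 lower in TfhA than in Th1 (median -0.05), and 5 higher and 3 lower in Tfh5 than in Th1 (median 0.15). Map3k14, the kinase NIK of the alternative pathway, was 2.31-fold higher in Tfh5 than in TfhA (69.4 ± 4.71 against 30.05 ± 3.18 CPM, edgeR adjusted p = 3.87e-10). Nfkb2, whose product p100 that pathway processes, went the other way and stood at 257 ± 53.5 in Th1, 98.7 ± 16.6 in TfhA and 66.4 ± 7.01 CPM in Tfh5. Of 12 feedback genes, which NF-κB induces or which restrain it, 3 were higher and 3 lower in Tfh5 than in TfhA (median -0.08), 2 higher and 5 lower in TfhA than in Th1 (median -0.19), and 2 higher and 7 lower in Tfh5 than in Th1 (median -0.43). Nfkbia, which encodes the inhibitor IκBα, was at 234 ± 44.7, 215 ± 46.6 and 115 ± 4.67 CPM, and Tnip2, a partner of A20, was higher in Tfh5 than in TfhA (47.5 ± 4.30 against 21.0 ± 2.22).

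Surface genes of T cell activation were compared because several of the 10 receptors appear with activation. Of 12, 3 were higher and 7 lower in Tfh5 than in TfhA (median -0.38). In TfhA against Th1, 3 were higher and 7 lower (median -0.29), and in Tfh5 against Th1, 4 were higher and 6 lower (median -0.13). In the same order of comparisons, 27.4%, 23.2% and 31.5% of all tested genes were higher, and 30.1%, 21.6% and 33.0% were lower. Il2ra, the IL-2 receptor chain CD25, had the order of the falling receptors, with 7008 ± 586 CPM in Th1, 2494 ± 198 in TfhA and 1750 ± 231 in Tfh5 (SDs over 5, 4 and 5 libraries). Cd40lg, which activates B cells through CD40 and is itself a member of the TNF ligand family, was at 328 ± 35.9, 149.5 ± 29.98 and 46.6 ± 3.41 CPM in that order. Ctla4, an inhibitory receptor, did not follow it and was at 606 ± 46.7, 221 ± 20.6 and 643 ± 62.0 CPM. Of the 10 regulatory T cell markers, 4 were higher and 5 lower in Tfh5 than in TfhA. In TfhA against Th1, 3 were higher and 4 lower, and in Tfh5 against Th1, 3 were higher and 4 lower. These counts are to be read against the same shares of all tested genes.

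**Figure D5:**
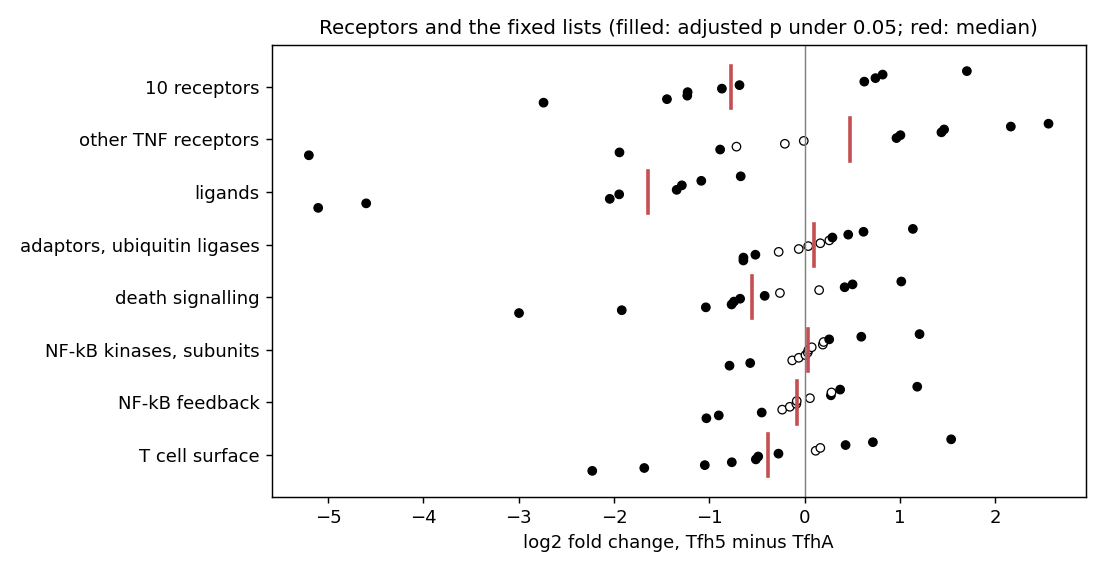
Log2 fold change of Tfh5 against TfhA for each tested gene (points, filled where the adjusted p was under 0.05) of the 10 receptors and 7 lists, with the median of each list as a red line. The ligands lie wholly to the left of 0 (median -1.64), whereas the 10 receptors have 4 genes on the right and 6 on the left.

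Among 9606 genes with at least 5 CPM on average and a named symbol, those most like each receptor were found from the root mean square difference of log2 CPM over the 14 libraries, each gene centred on its own mean. The nearest to Tnfrsf9 were Sema4a (0.22) and Cdkn1a (0.23). Cdkn1a, which encodes the cell cycle inhibitor p21, stood at 509 ± 62.9, 194 ± 29.6 and 37.0 ± 4.64 CPM in Th1, TfhA and Tfh5. Ccnd3 (0.12) and Rgs11 (0.16) were nearest to Tnfrsf18, Zbp1 (0.15) and Tagln2 (0.16) to Tnfrsf4, and Hilpda (0.30) and Nfil3 (0.34) to Tnfrsf8. Nearest to Cd27 were Vsir (0.13), which encodes the inhibitory receptor VISTA and stood at 58.1 ± 7.50, 131 ± 17.1 and 196 ± 19.0 CPM, and Dusp10 (0.13). Pex5 (0.12) and Cd99l2 (0.14) were nearest to Tnfrsf1b, Selplg (0.13) and Commd7 (0.14) to Tnfrsf1a, Galnt2 (0.12) and Use1 (0.14) to Tnfrsf25, Wipf1 (0.13) and Lrrc8d (0.14) to Tnfrsf10b, and Usp25 (0.13) and Stx7 (0.14) to Fas. The values are a description over 14 libraries that share their groups and depths. Between the receptors, the closest pair was Tnfrsf1a and Tnfrsf25 (0.17), and the farthest was Tnfrsf9 and Cd27 (2.58).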

How the data were processed

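Each sample is 1 mRNA library of sorted CD4 T cells, made from 100 ng of RNA. The authors deposited whole-number counts per gene under Entrez identifiers, with no normalization. STAR 2.7.2b, featureCounts 1.6.4 and the build mm10 are named in the submitters' processing notes. The sources used here do not give the annotation, the strand setting or the treatment of multimapping reads. The series table was identical to the 14 single-sample files and had 0 columns of other samples. Of its 27179 genes, 25275 matched a symbol in the RefSeq gene table (GRCm38.p6).

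Group and replicate number were read from each sample title. Counts of all 14 libraries entered 1 fit in edgeR 4.0.16 (R 4.3.3) with group means, filterByExpr (13075 genes kept) and TMM, tested by the two-sided quasi-likelihood F test. A gene passed at a Benjamini-Hochberg adjusted p under 0.05 over all tested genes. The SE is the log2 fold change divided by the square root of F. The common biological coefficient of variation was 14.25%. The script was tested on simulated data. The log2 ratio of Tnfrsf1b to Tnfrsf1a (prior count of 2) was compared by exact permutation over all regroupings of the libraries. Intervals and floors of low counts cover counting error only. Exon lengths come from GENCODE on GRCm38, gene positions and promoters from RefSeq on GRCm38.p6.

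The members and the gene lists were chosen with earlier results of these data known. Named genes are the 10 receptors, their 10 ligands, the nearest coding genes (not all printed), up to 3 passed genes per direction, comparison and list with at least 5 CPM (ordered by size of change, and not all printed), and the 2 genes most like each receptor. Tnfrsf26 was kept as a named gene of its list, and genes overlapping a receptor, Cxcr5, Cd3e, Foxp3 and the single cell type markers are named as checks. Alternatives were other scalings, no filter, DESeq2 1.42.0, only the groups compared, the replicate number as a block and leaving out each library. The same was done after seeing the data for the ligands with few counts.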

Additional observations from a re-analysis of the deposited data

Results flagged for a closer look

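In 7 of 54 groups of values (18 receptors and tested ligands in 3 groups), 1 library stood apart by Dixon's test of the gap to its nearest neighbour, and chance alone sets apart about 1 in 20 groups. Tnfrsf18 was at 538 CPM in Th1 replicate 1, above 404 to 439 in the other Th1 libraries, and at 56.1 CPM in Tfh5 replicate 4, below 71.6 to 75.5 in the others. Tnfrsf25 was at 40.5 CPM in the same Th1 replicate 1, against 24.1 to 26.7. Across genes, that library also differed more from the other Th1 libraries than they did from each other (chi-square per degree of freedom 22.95 to 30.64 against 4.15 to 9.81). Tnfrsf1b was at 41.5 CPM in TfhA replicate 5, against 51.4 to 51.8 in the others. Tnfsf8 was at 211 CPM in TfhA replicate 4, against 308 to 328. Fasl was at 2.83 CPM in Tfh5 replicate 3, against 0.82 to 1.33, and Cd70 at 0.094 CPM in that library, which is a single count, against 0 in the others. Leaving out any of these libraries changed no call of these 6 genes.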

How the results depend on the processing

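Over 70 results and 1343 alternative values, 1321 kept their direction and side of the threshold (or, without a test, stayed within their counting interval), 18 kept the direction but no longer passed, 3 changed sign and 1 moved. The counts of receptors higher and lower were the same in every alternative, as was each receptor's call. The differences of Tnfrsf1a and Fas between TfhA and Th1, which did not pass, changed sign without single libraries: Tnfrsf1a ranged from -0.213 to 0.0206 (above 0 without TfhA replicate 5), and Fas from -0.0963 to 0.0274 (above 0 without Th1 replicate 5 or TfhA replicate 2). The limit for Tnfsf15 in Tfh5 against TfhA moved to 3.61-fold without TfhA replicate 1, in an alternative chosen after seeing the data. Leaving out 1 library at a time gave 0.85 to 1.04 for the log2 ratio of Tnfrsf1b to Tnfrsf1a in Tfh5 against TfhA, -0.60 to -0.44 in TfhA against Th1 and 0.34 to 0.50 in Tfh5 against Th1. The last lost its call in 7 of those fits. Same-numbered libraries did not deviate together (correlations of -0.048 to 0.155), and not every library correlated best with its own number. With the replicate block, the ratio differences were 0.94, -0.51 and 0.40, each with adjusted p = 0.125 from the exact sign-flip test, where 4 pairs cannot go below 0.125 and 5 pairs not below 0.0625. The block gave 7258, 5521 and 8285 calls over all genes, against 7520, 5852 and 8440 without it, and Tnfsf10 in TfhA against Th1 lost its call (edgeR adjusted p = 0.0555). Cd70 could not be fitted in Tfh5 against TfhA with only those groups, since the filter removed it. Each receptor had at least 40 counts per library, and depth limits what can be said of Cd70, Tnfsf15 and Tnfsf18.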
